A study of Mus musculus with 6 samples.

Results

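Adult neurogenesis genes mark the steps by which stem cells of the dentate gyrus make new granule neurons. They were chosen by gene symbol, one probe per gene, and all 9 listed genes (Nes, Sox2, Hopx, Eomes, Neurod1, Dcx, Sox11, Igfbpl1 and Dpysl3) were found among 14860 tested genes, each with a single probe. RNA came from the hippocampus of 3 transgenic mice labelled HGPS, a name commonly short for Hutchinson-Gilford progeria syndrome, and of 3 wildtype mice. All were 63 weeks old, and each animal had 1 Affymetrix array. The labels give neither the allele, the promoter that drives the transgene nor the sex of the animals. No treatment is named for either group.

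In the adult hippocampus, radial glia-like stem cells lie in the subgranular zone of the dentate gyrus. They divide into intermediate progenitors, which give rise to neuroblasts and then to immature neurons that join the granule cell layer. Each step is known by its own transcription factors and cytoskeletal proteins, and the production of new neurons declines strongly with age in mice. Nes encodes the intermediate filament nestin of neural stem cells, Sox2 a transcription factor that keeps them undifferentiated, and Hopx a homeodomain protein found in quiescent stem cells and in astrocytes. Eomes (Tbr2) is a T-box factor of intermediate progenitors, and Neurod1 a basic helix-loop-helix factor needed for granule neurons to form and survive. Dcx encodes doublecortin, the microtubule-binding protein used as the standard marker of neuroblasts, Sox11 a transcription factor of immature neurons, and Dpysl3 (CRMP4) a protein of growing axons. Igfbpl1, an insulin-like growth factor binding protein-like gene, is used as a marker of neuroblasts.

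Wildtype replicates 2 and 3 stood apart. Averaged over Eif2s3y and Kdm5d, both Y-linked, the log2 signal was 4.67, 4.78 and 4.70 in the transgenic animals, against 4.63 in wildtype replicate 1 and 8.41 and 8.45 in wildtype replicates 2 and 3. Only those wildtype animals therefore carried the signal of a Y chromosome, and the groups were unbalanced in it. Array medians of the deposited log2 values lay between 7.44 and 7.47. Over all probes the correlation between arrays was 0.982 to 0.993, and wildtype replicate 1 was closest to transgenic replicate 1 (r = 0.993, across probes, which are not independent). The member differences, and the lists and genes that set these arrays apart most, are given with and without them.

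No adult neurogenesis gene passed the test between transgenic and wildtype hippocampus. At a false discovery rate of 10%, 0 of 9 passed in limma, against 7 of 14996 tested probes (0.0467%), all lower in the transgenic animals, and none of those probes reached the 2-fold that the series also asks for. At an unadjusted p under 0.05 the count of members was again 0 in each direction, against 5.81% of probes higher and 4.80% lower in the transgenic group. The median log2 difference over the 9 genes was 0.00, with 5 above 0 and 4 below, and the median over all tested genes was also 0.00. Differences ran from -0.15 for Dcx to 0.17 for Eomes, and the limma adjusted p from 0.578 to 0.992. The groups overlapped in every member, whereas they did not overlap, with the transgenic animals higher, in 9.14% of probes and, with them lower, in 8.55%. In this fit without covariates, each 95% interval lay within 1.5-fold either way, which also held for 91.9% of probes. Differences of 2-fold in these probe signals therefore lay outside all 9 of these intervals. Nes and Igfbpl1 were among the dimmest 33.3% of probes. How closely their signal follows their RNA level was not tested. The 1.5-fold bound is given for this fit only. In bulk tissue, fewer cells of a type and less RNA per cell cannot be told apart. The stem cells and neuroblasts are a small share of the cells in hippocampal tissue.

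**Figure D1:**
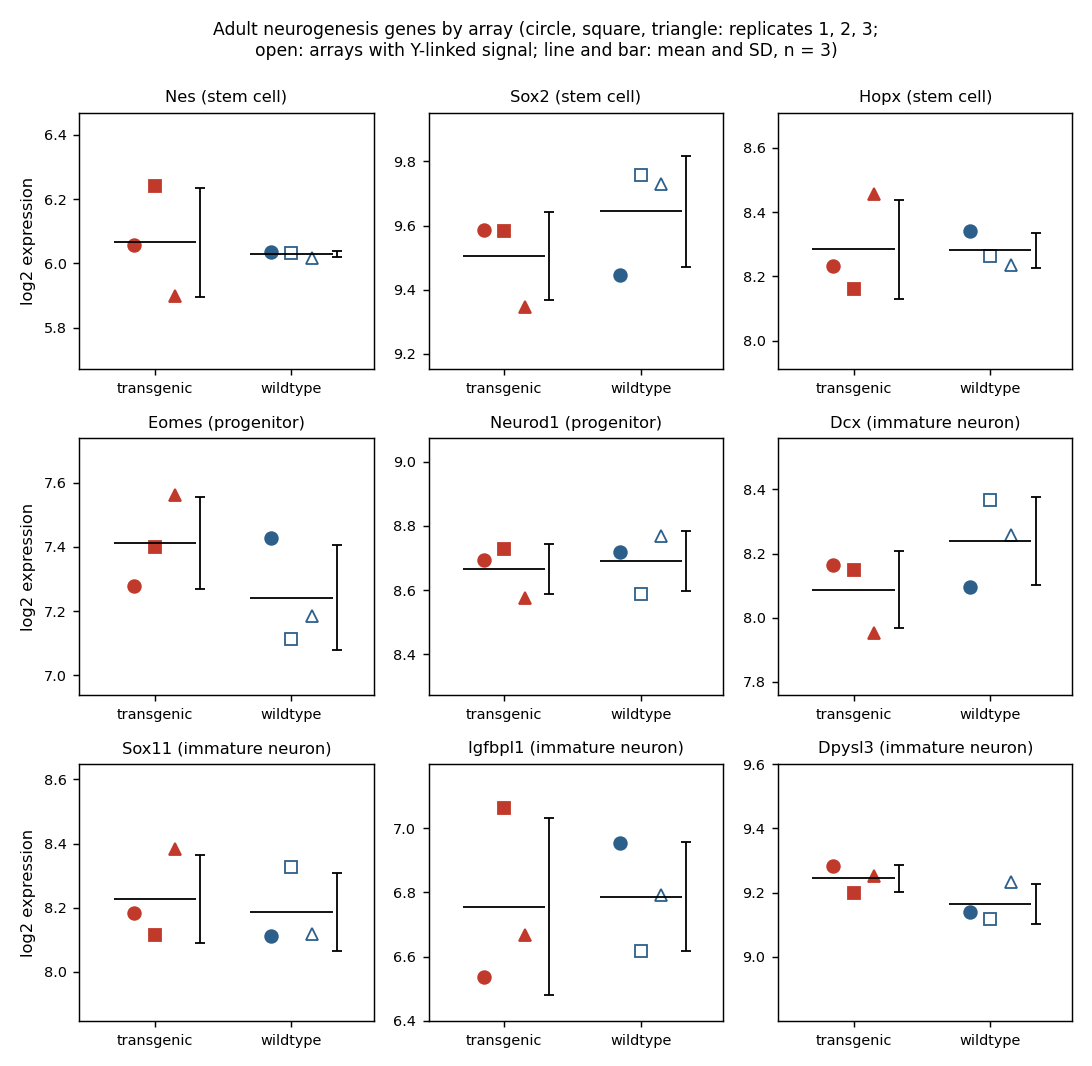
Log2 expression of each adult neurogenesis gene on each of the 6 arrays, transgenic animals left of wildtype animals, with the mean and SD of each group (n = 3). All panels span the same range of log2 units, open symbols are the wildtype arrays with Y-linked signal, and the groups overlap in all 9 panels.

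Among the stem cell genes, Nes measured 6.06, 6.24 and 5.90 in the transgenic animals, against 6.04, 6.03 and 6.02 in the wildtype animals. The wildtype values were nearly equal, and the transgenic ones lay on both sides of them. The log2 difference was 0.04 ± 0.09 (SE, 3 animals in each group, limma adjusted p = 0.896), with a 95% interval of -0.18 to 0.25, or 103% of wildtype (88.5% to 119%). Nes was among the dimmest 33.3% of probes. Its SD was 0.17 in the transgenic group and 0.01 in the wildtype group. Equality of the group spreads was not tested.

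Sox2 measured 9.59, 9.58 and 9.35 in the transgenic animals, against 9.45, 9.76 and 9.73 in the wildtype animals. Wildtype replicate 1 lay within the transgenic range, and the wildtype arrays with the Y-linked signal lay above it. The difference was -0.14 ± 0.11 (SE, limma adjusted p = 0.647), or 90.8% of wildtype (95% interval 76.1% to 108%).

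Hopx measured 8.23, 8.16 and 8.46 in the transgenic animals, against 8.34, 8.26 and 8.24 in the wildtype animals. Transgenic replicate 3 was the highest array and transgenic replicate 2 the lowest. The difference was 0.00 ± 0.09 (SE, limma adjusted p = 0.992), the smallest of the 9, with a 95% interval of -0.20 to 0.21.

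Of the progenitor genes, Eomes measured 7.28, 7.40 and 7.56 in the transgenic animals, against 7.43, 7.11 and 7.19 in the wildtype animals. Wildtype replicate 1 lay among the transgenic animals and the other wildtype arrays below them. The difference of 0.17 ± 0.11 was the highest among the members (SE, limma adjusted p = 0.582), or 113% of wildtype (95% interval 94.5% to 134%). The two-sided exact permutation p was 0.3, and the smallest that 3 against 3 can give is 0.1.

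Neurod1 measured 8.69, 8.73 and 8.58 in the transgenic animals, against 8.72, 8.59 and 8.77 in the wildtype animals. The values of both groups interleaved. The difference was -0.03 ± 0.07 (SE, limma adjusted p = 0.914), with a 95% interval of -0.20 to 0.15.

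Among the genes of neuroblasts and immature neurons, Dcx measured 8.16, 8.15 and 7.95 in the transgenic animals, against 8.10, 8.37 and 8.26 in the wildtype animals. As in Sox2, wildtype replicate 1 lay within the transgenic range and the other wildtype arrays above it. The difference was -0.15 ± 0.09 (SE, limma adjusted p = 0.578), or 90.0% of wildtype (95% interval 77.2% to 105%), and the two-sided exact permutation p was 0.3. Dcx is the only member on the X chromosome.

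Sox11 measured 8.19, 8.12 and 8.38 in the transgenic animals, against 8.11, 8.33 and 8.12 in the wildtype animals. One array of each group was high, and the difference was 0.04 ± 0.10 (SE, limma adjusted p = 0.887). Igfbpl1 measured 6.54, 7.06 and 6.67 in the transgenic animals, against 6.95, 6.62 and 6.79 in the wildtype animals. It varied most among the members, with a residual SD of 0.23, and its difference was -0.03 ± 0.15 (SE, limma adjusted p = 0.949).

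Dpysl3 measured 9.28, 9.20 and 9.25 in the transgenic animals, against 9.14, 9.12 and 9.23 in the wildtype animals. Of the wildtype animals, replicate 3 alone lay within the transgenic range. Dpysl3 varied least, with a residual SD of 0.05, and its difference was 0.08 ± 0.06 (SE, limma adjusted p = 0.642), or 106% of wildtype (95% interval 95.6% to 117%). The median residual SD was 0.13 over the 9 members and 0.10 over all tested genes.

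**Figure D2:**
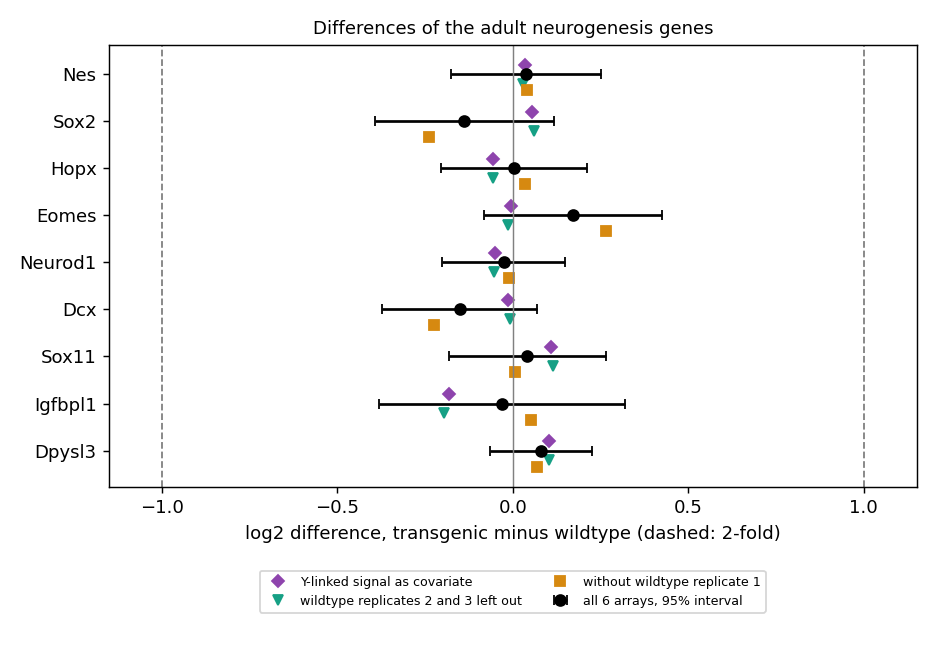
Log2 difference, transgenic minus wildtype, of each member with its 95% interval (black), and the same difference fitted beside the Y-linked signal, without wildtype replicates 2 and 3, and without wildtype replicate 1. Every black interval includes 0 and lies inside the dashed lines of 2-fold, and Sox2, Eomes and Igfbpl1 move most between the settings shown.

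Sox2, Eomes and Dcx shared one feature: the wildtype arrays with Y-linked signal lay outside the range of the other 4 arrays. This held for 3 of 9 members and for 24.8% of all probes, so it is not particular to the members. The direction differed. Relative to wildtype replicate 1, the mean of wildtype replicates 2 and 3 differed by 0.30 for Sox2 and 0.22 for Dcx, but by -0.28 for Eomes. Fitted beside the Y-linked signal, genotype gave a log2 difference of 0.05 ± 0.12 for Sox2, -0.01 ± 0.12 for Eomes and -0.01 ± 0.12 for Dcx (SE). Without wildtype replicates 2 and 3 the differences were 0.06, -0.01 and -0.01 in the same order of genes. Igfbpl1 moved away from 0, to -0.18 ± 0.20 (SE) beside the Y-linked signal and -0.20 without those wildtype arrays. Both fits rest on wildtype replicate 1 as the single wildtype array without that signal, and its spread is assumed to be that of the other arrays. Without wildtype replicate 1, which leaves wildtype animals that all carry the signal, the differences were -0.24 ± 0.10 for Sox2, 0.26 ± 0.10 for Eomes and -0.22 ± 0.09 for Dcx. In that fit genotype and whatever else sets those wildtype animals apart cannot be told apart, and the limma adjusted p was 0.385, 0.359 and 0.398. The unadjusted p was 0.0464, 0.0365 and 0.0516.

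The sequences upstream of these 3 genes are shown because their values took the same arrays apart from the rest, upward for Sox2 and Dcx and downward for Eomes. That choice was made from these same values. Each is the 250 bases before an annotated transcript start, credited to RefSeq with the build GRCm38.p6, 5′ to 3′ on the strand of the gene, and capitals mark the letters CCAAT on either strand. RefSeq gives Dcx a pair of such windows, of which the more upstream one is printed. The Sox2 window is chr3:34649745-34649994 on the plus strand, that of Eomes chr9:118477939-118478188 on the plus strand, and that of Dcx chrX:143933220-143933469 on the minus strand.
Sox2: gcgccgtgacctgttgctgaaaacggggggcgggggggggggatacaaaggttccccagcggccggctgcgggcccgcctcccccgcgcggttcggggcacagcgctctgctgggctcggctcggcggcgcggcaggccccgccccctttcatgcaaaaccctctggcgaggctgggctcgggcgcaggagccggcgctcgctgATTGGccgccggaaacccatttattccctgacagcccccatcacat
Eomes: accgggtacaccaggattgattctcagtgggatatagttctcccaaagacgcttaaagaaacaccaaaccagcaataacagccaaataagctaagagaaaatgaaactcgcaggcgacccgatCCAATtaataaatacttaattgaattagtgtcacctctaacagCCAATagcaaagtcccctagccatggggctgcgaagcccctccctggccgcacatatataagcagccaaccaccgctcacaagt
Dcx: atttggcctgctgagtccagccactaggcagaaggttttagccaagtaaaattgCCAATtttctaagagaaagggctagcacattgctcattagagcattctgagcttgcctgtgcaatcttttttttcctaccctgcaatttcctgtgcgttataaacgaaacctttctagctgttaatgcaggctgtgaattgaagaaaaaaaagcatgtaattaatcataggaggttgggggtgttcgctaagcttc

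CCAAT occurred 1 time before Sox2, 2 times before Eomes and 1 time before Dcx, and 33.8% of 32851 RefSeq windows of the same length held it. The other Dcx window held none, while Hopx and Sox11, which did not set those arrays apart, held it as well. The E-box CANNTG, the letters that basic helix-loop-helix proteins such as Neurod1 bind, was in none of the 3 windows and in 66.2% of all windows. The letters ACAAT, the core bound by SOX proteins, were also in none of the 3 and in 27.7% of all windows. The TATA box TATAAA was in the Dcx window, 1 time, and in 12.4% of all windows. The GC box GGGCGG was in the Sox2 window, 2 times, and in 32.7% of all windows. Motifs were searched on both strands. Of those searched, CCAAT alone was in all 3 printed windows, and it was the one marked. Its presence in all 3 was not tested against other sets of genes. A match is a description of the letters, and the expression data do not test binding.

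Averaged by stage, the members lay between -0.15 and 0.07 on every array. Single members spread more widely, with Igfbpl1 spanning 0.53 and Eomes 0.45 log2 units over the 6 arrays. With each gene's mean over the 6 arrays set to 0, the 3 stem cell genes averaged -0.01, 0.03 and -0.07 in the transgenic animals, against -0.03, 0.05 and 0.03 in the wildtype animals. The 2 progenitor genes averaged -0.02, 0.06 and 0.07 in the transgenic animals, against 0.07, -0.15 and -0.03 in the wildtype animals. The 4 genes of immature neurons averaged -0.04, 0.05 and -0.02 in the transgenic animals, against -0.01, 0.02 and 0.01 in the wildtype animals. In each stage the groups overlapped. The median difference was 0.00 for the stem cell genes, 0.07 for the progenitor genes and 0.00 for the genes of immature neurons.

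**Figure D3:**
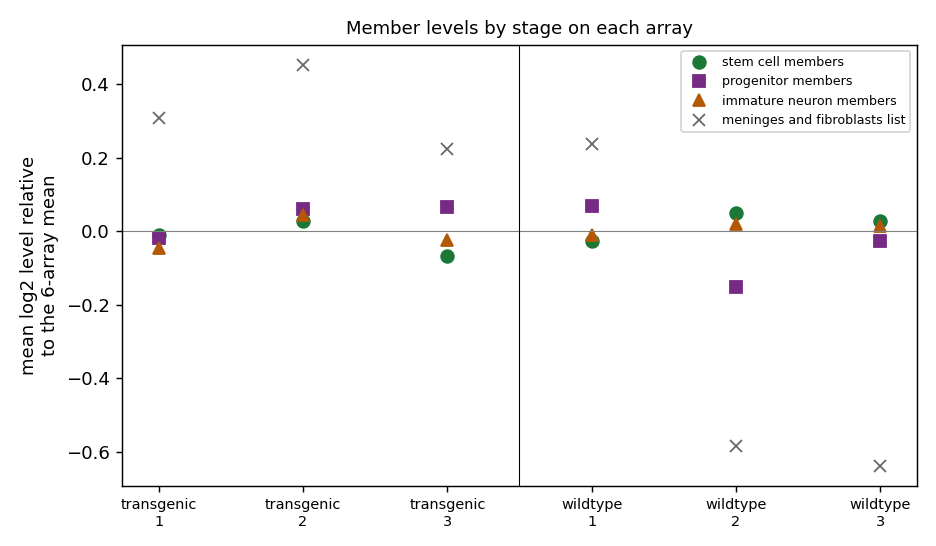
Mean log2 level of the stem cell, progenitor and immature neuron members on each array, relative to the mean of the 6 arrays, beside the list of meninges and fibroblasts. The stage means stay between -0.15 and 0.07, while single members spread more widely. The mean of the meningeal list is at -0.59 and -0.64 in wildtype replicates 2 and 3.

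Further markers of the same steps gave no call either. Of 11 further stem cell genes measured, none passed the false discovery rate, with a median log2 difference of -0.04. At an unadjusted p under 0.05, 2 of these were higher and 1 lower, beside 5.81% and 4.80% of all probes. Lpar1, a lysophosphatidic acid receptor gene of stem cells and oligodendrocytes, measured 8.79, 8.82 and 8.80 in the transgenic animals, against 8.69, 8.51 and 8.56 in the wildtype animals. Its difference was 0.22 ± 0.07 (SE, limma adjusted p = 0.431), and the groups did not overlap. Sox9, a factor of stem cells and astrocytes, differed by 0.19 ± 0.07 (limma adjusted p = 0.439). Hes5, an effector of Notch signalling in stem cells, measured 8.76, 8.87 and 8.65 in the transgenic animals, against 8.87, 9.04 and 8.95 in the wildtype animals. All 3 transgenic animals were below all wildtype animals, by -0.20 ± 0.08 on average (limma adjusted p = 0.462).

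Of 4 further genes of intermediate progenitors, all measured, 3 lay below 0 with a median of -0.15, and none had an unadjusted p under 0.05. The neurogenic factor gene Neurog2 differed by -0.17 ± 0.12 (SE, limma adjusted p = 0.622), the related Neurod4 by -0.26 ± 0.17 (limma adjusted p = 0.592) and the AP-2 factor gene Tfap2c by -0.13 ± 0.07 (limma adjusted p = 0.527). In Neurod4 wildtype replicate 2, at 6.63, stood above the other 5 arrays, which lay at 5.90 to 6.07. The median of these genes was opposite in sign to the difference of Eomes, which did not pass the test, and had the sign of Neurod1, at -0.03. Without wildtype replicates 2 and 3, Eomes was at -0.01 and the median of these genes at -0.11.

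Of 11 further genes of immature neurons 6 were measured, with a median of -0.01 and differences from -0.03 to 0.06. Sox4, the close relative of Sox11, differed by -0.03 ± 0.06 (SE, limma adjusted p = 0.868). Crmp1, of the same protein family as Dpysl3, differed by 0.06 ± 0.06 (limma adjusted p = 0.704). The helix-loop-helix gene Nhlh1 differed by -0.02 ± 0.09 (limma adjusted p = 0.942). Calb2 had no probe with a single symbol.

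Genes of dividing cells, which amplifying progenitors express, gave no call. Of 16 listed genes 12 were measured, with a median of -0.07, none with an unadjusted p under 0.05. Mki67, the gene of the proliferation antigen Ki-67, measured 4.46, 4.76 and 4.87 in the transgenic animals, against 4.58, 5.32 and 4.53 in the wildtype animals. Wildtype replicate 2 was the highest array, and the groups overlapped. The difference was -0.12 ± 0.22 (SE, limma adjusted p = 0.858). Mki67 and Top2a lay near the level of the Y-linked probes on arrays without Y-linked signal. That level was 4.33 to 4.46 for Eif2s3y and 4.93 to 5.10 for Kdm5d, so the Mki67 and Top2a probes could hardly show a decrease. The cyclin gene Ccnb2 had the smallest p of the list, at -0.14 ± 0.07 (limma adjusted p = 0.53), and its groups overlapped. Mcm6, of the replicative helicase, differed by 0.11 ± 0.06, and the topoisomerase gene Top2a by -0.10 ± 0.08 (limma adjusted p = 0.571 and 0.651).

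Signals of the niche that hold or release stem cells likewise gave no call. Of 8 genes of the Notch pathway, 1 was higher and 1 lower at an unadjusted p under 0.05, where all probes gave 5.81% and 4.80%. The ligand gene Jag1 differed by 0.28 ± 0.10 (SE, limma adjusted p = 0.433) and the pathway's transcription factor gene Rbpj by 0.30 ± 0.13 (limma adjusted p = 0.483), while the lower gene was Hes5. Of 5 Hedgehog genes 4 lay below 0, with a median of -0.08. Gli1, a target of the pathway, measured 6.77, 6.84 and 6.74 in the transgenic animals, against 6.92, 7.06 and 6.92 in the wildtype animals. The groups did not overlap in Gli1, whose difference was -0.18 ± 0.07 (limma adjusted p = 0.433). The ligand gene Shh differed by -0.22 ± 0.10 (limma adjusted p = 0.504) and the receptor gene Ptch1, also a target, by 0.07 ± 0.06 (limma adjusted p = 0.653).

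Of 10 genes of BMP signalling, which keeps stem cells quiescent, 2 were higher at an unadjusted p under 0.05, against 5.81% of all probes. Bmp4 measured 8.11, 8.01 and 7.90 in the transgenic animals, against 7.96, 7.28 and 7.26 in the wildtype animals. Its difference was 0.51 ± 0.19 (SE, limma adjusted p = 0.433), with wildtype replicate 1 again among the transgenic animals, and 0.05 without wildtype replicates 2 and 3. The common mediator gene Smad4 differed by 0.18 ± 0.06 (limma adjusted p = 0.432) and the receptor gene Bmpr2 by -0.15 ± 0.07 (limma adjusted p = 0.477). Of 9 Wnt genes 7 lay above 0 with a median of 0.13, and Dkk3, of the Dickkopf family, had the smallest p at 0.15 ± 0.06 (limma adjusted p = 0.442). Wnt7a and Wnt7b, both ligands, differed by 0.15 ± 0.08 and -0.15 ± 0.08 (limma adjusted p = 0.534 and 0.546).

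**Figure D4:**
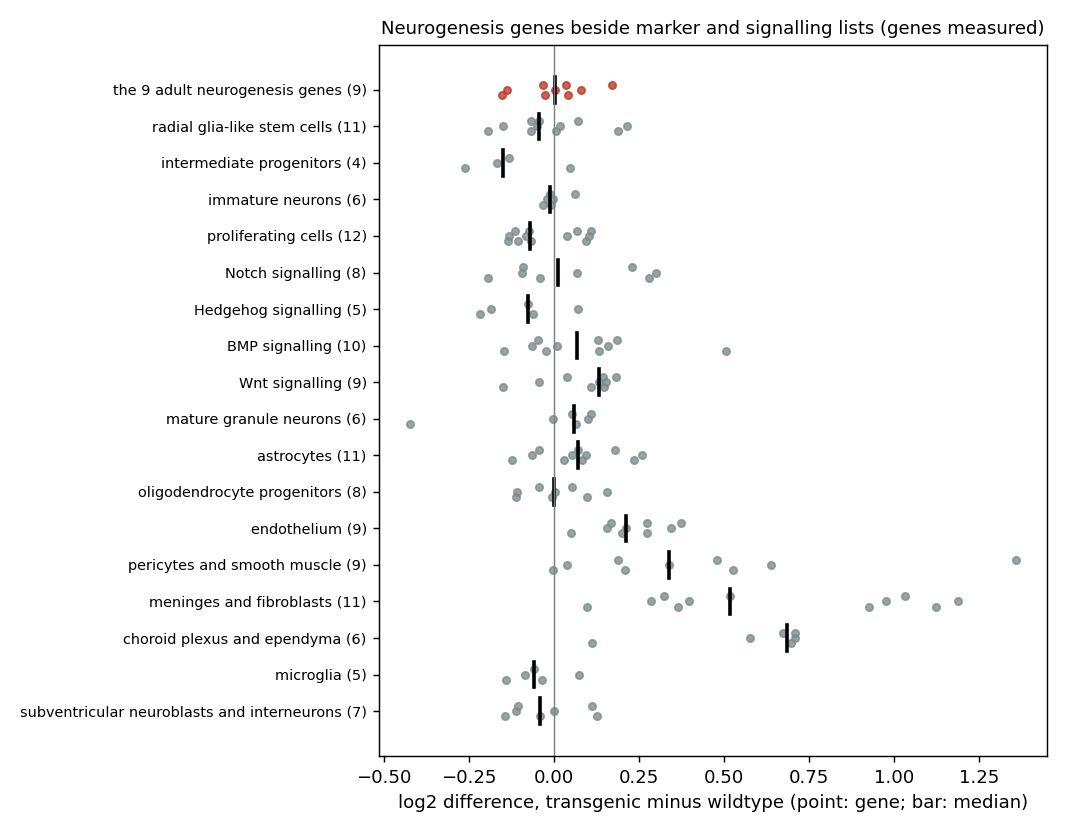
Log2 difference, transgenic minus wildtype, of each adult neurogenesis gene (top, red) and of each measured gene of the marker and signalling lists, with the number measured and the median of each list as a bar. The 9 members lie between -0.15 and 0.17, and the medians of endothelium, pericytes, meninges and choroid plexus lie between 0.21 and 0.68.

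Other cell types that hold some of the members were compared in the same way. Sox2 and Hopx are also found in astrocytes, and of 11 measured astrocyte genes 8 lay above 0 with a median of 0.07. Gfap, the astrocyte filament that stem cells also carry, differed by 0.26 ± 0.11 (SE, limma adjusted p = 0.476), the receptor gene Ntsr2 by 0.23 ± 0.07 (limma adjusted p = 0.431), the gap junction gene Gja1 by 0.18 ± 0.09 (limma adjusted p = 0.512) and the water channel gene Aqp4 by 0.05 ± 0.06 (limma adjusted p = 0.752). Slc4a4, a bicarbonate transporter gene, S100b and the receptor gene Fgfr3, named after their values were seen, were the 3 below 0, at -0.12, -0.07 and -0.04. Of the 11 genes, 6 set wildtype replicates 2 and 3 apart, against 24.8% of all probes. Without those arrays 8 lay above 0, with a median of 0.05. Gfap was then at 0.11, Ntsr2 at 0.17, Gja1 at 0.13 and Aqp4 at 0.07. The 8 genes of oligodendrocyte progenitors, which can express Sox2, had a median of 0.00. Their receptor gene Pdgfra differed by 0.10 ± 0.08, Olig1 by 0.15 ± 0.10 and C1ql1 by -0.11 ± 0.06 (limma adjusted p = 0.681, 0.598 and 0.558). Without wildtype replicates 2 and 3, Pdgfra was at -0.05, Olig1 at 0.11 and C1ql1 at -0.17.

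Nestin is also made by vessel cells, and most markers of vessels and of tissue around the hippocampus had differences above 0, none of which passed the false discovery rate. All 9 measured endothelial genes lay above 0, with a median of 0.21, among them the tight junction gene Cldn5 at 0.37 ± 0.10, Cdh5 at 0.34 ± 0.10 and Esam at 0.27 ± 0.06 (SE, limma adjusted p = 0.431 for each). Of 9 genes of pericytes and smooth muscle 8 lay above 0, with a median of 0.34. Des differed by 0.53 ± 0.09, Vtn by 0.64 ± 0.18, Acta2 by 1.36 ± 0.45 and the pericyte receptor gene Pdgfrb by 0.21 ± 0.09 (limma adjusted p = 0.4, 0.431, 0.432 and 0.48). All 11 genes of meninges and fibroblasts lay above 0, with a median of 0.52, among them Ptgds at 1.19 ± 0.36, Slc22a6 at 0.97 ± 0.30 and Fbln1 at 0.52 ± 0.16 (limma adjusted p = 0.431 for each). Averaged over the meningeal list and centred on the 6 arrays, the level was 0.22 to 0.45 in the transgenic animals, against 0.24 in wildtype replicate 1 and -0.59 and -0.64 in wildtype replicates 2 and 3. For pericytes and smooth muscle it was 0.11 to 0.27 in the transgenic animals, against 0.14, -0.38 and -0.38 in the wildtype animals. For endothelium it was 0.07 to 0.18 in the transgenic animals, against -0.02, -0.23 and -0.10 in the wildtype animals. The 6 measured genes of choroid plexus and ependyma had a median of 0.68, with Ttr at 0.70 ± 0.45, Otx2 at 0.71 ± 0.45 and Clic6 at 0.71 ± 0.45 (limma adjusted p = 0.592, 0.582 and 0.586). Their mean level was -0.30 to 0.65 in the transgenic animals, against 0.50, -0.49 and -0.89 in the wildtype animals. Without wildtype replicates 2 and 3, an alternative chosen after seeing the data and given with no test since 1 wildtype array is left, the median was 0.10 for endothelium, 0.04 for pericytes and smooth muscle, 0.09 for meninges and fibroblasts and -0.23 for choroid plexus and ependyma. Acta2 was then at 0.16, Vtn at 0.20, Des at 0.34, Ptgds at 0.26, Slc22a6 at 0.23, Fbln1 at 0.13 and Ttr at -0.21. Cldn5 and Esam were at 0.36 and 0.30, and Cdh5 and Pdgfrb at 0.10 and 0.04. Sox2, Eomes and Dcx set the same wildtype arrays apart, as did 24.8% of all probes. On those arrays Eomes was lower, like the meningeal and pericyte lists, whereas Sox2 and Dcx were higher. The part of tissue composition in the members' values was not tested.

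Neuroblasts of the subventricular zone also express Dcx and Sox11. Of 7 measured genes of these cells and of interneurons, 2 lay above 0, with a median of -0.04. The homeobox gene Dlx2 differed by -0.04 ± 0.06, Sp9 by -0.14 ± 0.08, Gad1 by 0.13 ± 0.06 and Gad2 by -0.11 ± 0.07 (SE, limma adjusted p = 0.809, 0.562, 0.508 and 0.571). The 6 genes of mature granule neurons, the end point of the lineage, had a median of 0.06. Prox1, the identity factor of these neurons, differed by 0.10 ± 0.10 and the kinase gene Plk5 by 0.11 ± 0.11 (limma adjusted p = 0.714 and 0.733). Tdo2, a tryptophan dioxygenase found in granule neurons, measured 5.30, 5.37 and 4.94 in the transgenic animals, against 5.78, 5.46 and 5.65 in the wildtype animals. The groups did not overlap in Tdo2, with a difference of -0.42 ± 0.13 (limma adjusted p = 0.431). Its transgenic values lay near the 4.93 to 5.10 of Kdm5d on arrays without Y-linked signal. The 5 measured microglial genes had a median of -0.06, with Cx3cr1 at -0.14 ± 0.07, Aif1 at -0.08 ± 0.07 and Csf1r at 0.07 ± 0.07 (limma adjusted p = 0.527, 0.671 and 0.693).

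Sox2 and Nes lie on chromosome 3, which also holds all 7 genes that passed the false discovery rate. Ordered as in GRCm38.p6, 37 measured genes separate Sox2 from the nearest of these, Nlgn1, and 170 separate Sox2 from Nes. The 5 measured neighbours on each side of Sox2 had a median log2 difference of -0.04, with 6 of 10 below 0. Sox2ot, the long noncoding RNA gene that overlaps Sox2, differed by -0.05 ± 0.09 (SE, limma adjusted p = 0.848). On its side of Sox2 the other neighbours were Ttc14 at -0.14, Ccdc39 at -0.03, Fxr1 at -0.13 and Dnajc19 at 0.37, and those on the other side Atp11b at -0.08, Dcun1d1 at -0.28, Mccc1 at 0.01, Ccdc144b at 0.02 and Acad9 at 0.12. The neighbours of Nes had a median of 0.07, with 3 of 10 below 0. They were Hdgf at 0.04, Mrpl24 at 0.15, Rrnad1 at 0.02, Isg20l2 at 0.14 and Crabp2 at 0.60 on one side, and Bcan at -0.08, Hapln2 at 0.10, Gpatch4 at -0.09, Naxe at 0.19 and Ttc24 at -0.16 on the other. None of these neighbours passed the false discovery rate. The 7 calls themselves were 0 when transgenic replicate 1 or 2 or wildtype replicate 2 or 3 was left out, and 103 probes passed without wildtype replicate 1.

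By Pearson correlation over the 6 arrays, the genes most like Dcx were Zkscan14, Lhx4 and Olfr1457, and those most like Nes were Purb, Krtap5-4 and Olfr1370. For Dcx the 3 coefficients lay between 0.9973 and 0.9985, and 93 genes came within 0.05 of the third. For Nes they lay between 0.9717 and 0.9875. The likeness is a description over 6 points that share arrays and normalization.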

How the data were processed

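RNA of 6 hippocampi, 3 transgenic and 3 wildtype, was measured on Affymetrix arrays, 1 per animal; the replicates are separate animals per the labels. The authors deposited a log2 expression value for each probe, computed with RMA. Both RMA and the build mm8 are named per the submitters' processing notes. RMA corrects background, normalizes between arrays and summarises probes. Its version is not known here. The platform table supplied 1 symbol for 14996 of 23332 probes, several for 1019 and none for 7317, and it may be outdated. RefSeq (GRCm38.p6) held 14941 of the 14996 and changed 0 names.

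Transgenic and wildtype arrays were compared without covariates in limma 3.58.1 (R 4.3.3), two-sided. P-values were adjusted by Benjamini-Hochberg over all 14996 probes, at the rate of 10% stated in the series. The highest-mean probe stood for a gene. Errors are limma's moderated standard errors, and exact permutation tests used scipy 1.17.1. The fit was tested on simulated data. The number of arrays limits precision.

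The members and gene lists were chosen with earlier results of these data known. Named were the 9 members, up to 3 genes with the smallest p in each list, set defining markers, the 3 genes most like Dcx and Nes, and 5 neighbours on each side of Sox2 and Nes. Lists are described by counts and medians.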

Additional observations from a re-analysis of the deposited data

How the results depend on the processing

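No member passed the false discovery rate of 10% in any of the 17 alternative fits, where the lowest limma adjusted p was 0.359. In the 11 settings that can move a difference, 79 of 99 member differences kept their sign and 20 turned. Quantile normalization gave -0.0103 for Hopx and 0.0160 for Igfbpl1, and array weights -0.0472 for Hopx and 0.0677 for Igfbpl1. Fitted beside the Y-linked signal, Sox2 was at 0.0531, Hopx at -0.0575 and Eomes at -0.0061. Without wildtype replicates 2 and 3, Sox2 was at 0.0594, Hopx at -0.0576 and Eomes at -0.0138. Leaving out 1 array at a time gave ranges of -0.0508 to 0.1199 for Nes, -0.0837 to 0.0645 for Hopx, -0.0777 to 0.0189 for Neurod1, -0.0360 to 0.1116 for Sox11, -0.1858 to 0.0788 for Igfbpl1, -0.2379 to -0.0592 for Sox2, 0.0966 to 0.2641 for Eomes, -0.2238 to -0.0834 for Dcx and -0.0508 to 0.0403 for the median over the members. The values of Sox2, Eomes and Dcx nearest 0 came without transgenic replicate 3, and those farthest from 0 without wildtype replicate 1. Without wildtype replicate 2 they were -0.0825, 0.1069 and -0.0884. The cause of these turns was not tested. The count over all probes, 7, was 0 with the replicate block, without variance moderation, with all probes tested, with the Y-linked signal in the fit and without wildtype replicates 2 and 3, and 12 both with trend and robust estimation and with array weights. It ranged from 0 to 103 when 1 array was left out, with 103 without wildtype replicate 1, 6 without transgenic replicate 3 and 0 without any one of the others, and 1592 probes had an unadjusted p under 0.05. With the replicate block 0 members passed. The replicate numbers were not taken as pairs in the main fit. Same-numbered deviations from the group means correlated at 0.23, 0.149 and 0.023, and differently numbered ones at -0.253 to 0.0926. For each transgenic replicate the same-numbered wildtype array gave the highest value. Whether the numbers mark a shared batch was not tested. Nes and Igfbpl1 fell among the dimmest 33.3% of probes and have no value under that filter. Without wildtype replicates 2 and 3, list medians that changed sign were 0.05 for immature neurons, 0.03 for proliferating cells, -0.04 for Notch, -0.01 for BMP, -0.06 for mature granule neurons, 0.02 for subventricular neuroblasts and interneurons and -0.23 for choroid plexus and ependyma.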
